A study of Mus musculus with 384 samples.

Results

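The 8 genes described here encode the Fos and Jun families of transcription factors and the related factor Atf3: Fos, Fosb, Fosl1, Fosl2, Jun, Junb, Jund and Atf3. They were taken by name from the deposited count table, which holds 23481 genes, and all 8 have an entry there. The study measured gene expression in bone-marrow-derived macrophages, cells grown in culture from mouse marrow. They came from 13-week-old male C57BL/6 mice that were Myd88 knockouts (KO) or wild type (WT). Most Toll-like receptors (TLRs) pass their signal on through the adaptor Myd88. All cells of both genotypes had been transduced with a pool of reporter viruses during growth, and untransduced cells were not analysed here. Each well then received 1 of 12 ligands, named in the labels as Pam3Cys, Poly(I:C), LPS, FLA, R848, CpG, MDP, MDP/LPS, TDB, SeV, Zymosan and HT-DNA. Wells were lysed at 0, 0.5, 1, 1.5, 2, 2.5, 3 or 4 h, so that no time had passed in the wells that serve as the baseline. Each genotype filled 2 plates of 96 wells, with 1 well per ligand and time on each plate. The labels do not say whether the plates of a genotype came from separate mice, so the spread between plates may be technical. The p-values and standard errors (SE) below rest on that spread pooled over all groups, not on the 2 plates of 1 comparison. Each plate holds 1 genotype, so genotype and plate cannot be told apart.

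Fos proteins pair with Jun proteins through leucine zippers to form the AP-1 transcription factor, and Jun proteins can also pair with one another or with ATF proteins. Most of these genes are immediate early genes: their transcription needs no new protein, is switched on by MAP kinases acting on factors already bound to their promoters, and the short-lived transcripts soon disappear. In macrophages AP-1 acts beside NF-kB at inflammatory genes, and Atf3 is known as a brake on TLR-induced cytokine genes. As background on the ligands, LPS is sensed by TLR4, which signals through Myd88 and also through the adaptor Trif. Poly(I:C) is sensed by TLR3, which signals through Trif and not through Myd88. Pam3Cys, R848 and CpG DNA are sensed by TLRs that signal through Myd88.

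The promoters of 4 members are shown because their genes gave the changes described below and because short motifs tell them apart. They are the 100 bases before the RefSeq transcription start, 5′ to 3′ on the gene's strand, from GRCm38.p6. Fos is at chr12:85473790-85473889 (+), Jun at chr4:95052223-95052322 (−), Junb at chr8:84978749-84978848 (−) and Atf3 at chr1:191183334-191183433 (−). Capitals mark the motifs that a search found.
Fos: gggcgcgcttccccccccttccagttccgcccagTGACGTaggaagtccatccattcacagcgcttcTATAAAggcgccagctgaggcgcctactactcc
Jun: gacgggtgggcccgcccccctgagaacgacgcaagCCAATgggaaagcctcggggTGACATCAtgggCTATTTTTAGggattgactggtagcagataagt
Junb: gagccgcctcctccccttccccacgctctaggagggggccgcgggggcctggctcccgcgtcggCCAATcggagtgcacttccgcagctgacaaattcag
Atf3: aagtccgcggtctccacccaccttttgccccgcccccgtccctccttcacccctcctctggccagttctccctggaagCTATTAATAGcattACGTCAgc

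The search covered both strands of 32851 promoter entries of this length and used TGACGT (the core of a cyclic AMP response element, CRE), TGANNTCA (CRE-like), TGANTCA (the AP-1 site), TATAAA (the TATA box), CCAAT (the CCAAT box), the CArG box and the MEF2 site. A sequence can hold more than 1 of them, and a CRE core can be part of a CRE-like match. The Fos promoter holds the CRE core 66 to 61 bases before the start and TATAAA 33 to 28 bases before it. These motifs are in 4.09% and 5.56% of all entries. The Jun promoter holds CCAAT (18.9% of entries), a CRE-like TGACATCA (6.34%) and a MEF2 site (0.234%). Atf3 holds a MEF2 site and, on the other strand, the CRE core. Of these motifs Junb holds CCAAT alone, and Jund, whose sequence is not shown, holds a CRE-like match. The Jund window ends at chr8:70697738, while the GENCODE entry given below starts the gene at chr8:70698949. The Atf3 window lies inside the GENCODE span of that gene, chr1:191170296-191218039, and not before it. The AP-1 site TGANTCA (2.73% of entries) and the CArG box (0.615%) are not in this window of any of the 7 members with an entry, and Fosl1 has no entry.

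The wells, 192 of each genotype, held 71720 to 767167 counts, with a median of 342561, and 7 wells held fewer than 100000. Myd88 itself was at 15.1 and 18.2 CPM (the count scaled by the total count) on the KO plates, against 45.9 and 47.7 CPM on the WT plates. If the 3′ tag of Myd88 lies outside the deleted stretch, its level checks nothing about the deletion. Of 10 macrophage markers 9 were in the table and all 9 were detected, with a summed level of 2771 to 5382 CPM in KO wells and 2788 to 5169 CPM in WT wells. Neutrophil markers had a median summed level of 142 CPM in KO wells and 134 CPM in WT wells, from S100a8, S100a9 and Ngp. The erythroid and megakaryocyte list had a median of 194 CPM in KO and 222 CPM in WT, nearly all from Pf4, whose own medians were 194 CPM in KO and 220.1 CPM in WT. The medians of the B cell, T and NK cell, and fibroblast lists were 0 in both genotypes, and that of the dendritic cell list was 8.03 CPM in KO and 12.3 CPM in WT. The part of these cells in the results was not tested.

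Of the 8 members, 6 (Fos, Fosl2, Jun, Junb, Jund and Atf3) passed the filter on low counts and could be tested. Fosb, a Fos protein that is induced in the same way as Fos, had 229 counts over all wells, and Fosl1, which encodes Fra-1, had 139. Their changes were therefore described and not tested. Fosb counted 21 in 7 of 24 KO wells at 0.5 h, and 46 in 14 of 24 WT wells at 0.5 h. At time 0 it counted 16 over the KO wells and 17 over the WT wells. On the scale of summed counts these were 2.38 CPM in KO and 5.01 CPM in WT at 0.5 h, against 1.85 CPM in KO and 2.11 CPM in WT at time 0. Fosl1 counted 4 over the KO wells and 21 over the WT wells at 1 h, against 4 and 2 at time 0. Among later wells, TDB gave 12 Fosl1 counts in KO and 24 in WT over 2 to 4 h, the WT sum being the highest of any ligand for that gene. Fosl1 overlaps Ccdc85b on the opposite strand, and Junb overlaps Prdx2. Whether the counting used strand is not given in the sources used here, so reads from these partners cannot be told apart from theirs. In GRCm38 with GENCODE annotation, the tested members lie at chr12:85473890-85477273 (Fos), chr5:32135801-32157842 (Fosl2), chr4:95049034-95052222 (Jun), chr8:84974484-84978718 (Junb), chr8:70698949-70700616 (Jund) and chr1:191170296-191218039 (Atf3).

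Before stimulation, Fos and Junb were lower on the KO plates than on the WT plates, and neither difference passed the test. Fos was at 127 and 173 CPM in the summed time 0 wells of the KO plates, against 307 and 279 CPM on the WT plates. Junb was at 152 and 153 CPM on the KO plates, against 273 and 314 CPM on the WT plates. The plates of each genotype lay apart from those of the other for both genes. The fitted log2 differences, KO minus WT, were −0.998 for Fos (SE 0.37, edgeR adjusted p = 0.841) and −0.97 for Junb (SE 0.28, edgeR adjusted p = 0.150). Of the 6 members 0 passed, where 0.312% of all genes tested were called in either direction. An unadjusted p under 0.05 was reached by 2 of the 6, beside 245 of all 10562 genes tested. Without KO replicate 2, 1 member passed, Junb, with an edgeR adjusted p of 0.0337. In these bulk wells fewer cells with the transcript and less of it per cell cannot be told apart. Jun was at 149.9 ± 3.11 CPM in KO and 166 ± 12.9 CPM in WT, Jund at 85.9 ± 14.1 and 106 ± 4.62 CPM, Atf3 at 234 ± 6.46 and 247 ± 28.1 CPM, and Fosl2 at 20.2 ± 0.614 and 23.3 ± 1.32 CPM (KO then WT in each pair, SD, n = 2 plates). Single time 0 wells of 1 plate also differed: Fos wells of the second WT plate ran between 99.7 and 398 CPM, and Junb wells of that plate between 212 and 701 CPM.

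At 0.5 h Fos, the founding member of the Fos family, rose with 3 ligands in KO macrophages and with 7 in WT macrophages. In KO these were MDP/LPS, LPS and Zymosan. In WT they were the same 3 and also R848, CpG, Pam3Cys and FLA. Counted over the 6 tested members and 12 ligands, 7 of 72 pairs rose in KO and 19 of 72 in WT, and 0 fell in either genotype. Over all genes tested, 0.0592% of gene and ligand pairs were called higher in KO and 0.144% in WT at this time, and 0% in KO and 0.000897% in WT were called lower. All comparisons within a genotype share the same time 0 wells. Leaving out a WT plate lowered the count of WT pairs to 2 (without WT replicate 1) or 5 (without WT replicate 2), where the remaining well was assumed to vary like the other groups. Over the 4 plates left out in turn, the KO count ran between 5 and 7.

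With LPS, Fos reached 1371 and 870.1 CPM in the KO wells of plates 1 and 2, and 3054 and 1613 CPM in the WT wells. All these wells were above every time 0 well of their genotype, of which the highest were 238 CPM in KO and 398 CPM in WT. The log2 changes were 2.95 (SE 0.46, edgeR adjusted p = 5.51e-06) in KO and 3.06 (SE 0.46, edgeR adjusted p = 3.14e-06) in WT. With MDP/LPS, Fos was at 1472 and 2171 CPM in KO, against 2168 and 2333 CPM in WT. That change was the largest of Fos in KO, 3.65 on the log2 scale (SE 0.47, edgeR adjusted p = 2.69e-08), beside 2.99 in WT (SE 0.46, edgeR adjusted p = 5.93e-06). Zymosan gave plates that lay far apart in KO, 1364 and 389 CPM, and close together in WT, 2479 and 2780 CPM. The changes were 2.54 in KO (SE 0.45, edgeR adjusted p = 0.00042) and 3.15 in WT (SE 0.46, edgeR adjusted p = 4.39e-06). The KO call rested on plate 1: without KO replicate 1 the Zymosan change was 1.16 (edgeR adjusted p = 0.475), and without KO replicate 2 it was 3.40 (edgeR adjusted p = 0.00125).

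With every ligand except MDP/LPS, both KO Fos wells at 0.5 h lay below both WT wells, as the time 0 sums also did. With R848 Fos was at 154 and 87.1 CPM in KO, within the range of the KO time 0 wells. In WT it was at 2058 and 1547 CPM, above all WT time 0 wells. The log2 change was −0.24 in KO (SE 0.48, edgeR adjusted p = 1) and 2.65 in WT (SE 0.45, edgeR adjusted p = 0.000105). These levels rest on 79 Fos counts in KO and 1240 in WT. CpG gave 170.4 and 298 CPM in KO and 2345 and 1062 CPM in WT, a change of 2.57 in WT (SE 0.45, edgeR adjusted p = 0.00014). FLA gave 150.5 and 285 CPM in KO and 1111 and 987 CPM in WT, a change of 1.83 in WT (SE 0.44, edgeR adjusted p = 0.0341). The Pam3Cys wells of WT disagreed, with 2854 CPM on plate 1 and 367 CPM on plate 2, and the second value lies within the range of the WT time 0 wells. Its change of 2.49 in WT (SE 0.45, edgeR adjusted p = 0.000926) therefore rests on plate 1. In the order of Fos levels at 0.5 h, 9 of 11 neighbouring ligands in KO and 6 of 11 in WT overlapped between plates. In KO, MDP/LPS stood above LPS without overlap. In WT, MDP/LPS stood above R848, FLA above Poly(I:C) and Poly(I:C) above HT-DNA without overlap, while LPS, with plates far apart, overlapped both Zymosan and R848.

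**Figure D1:**
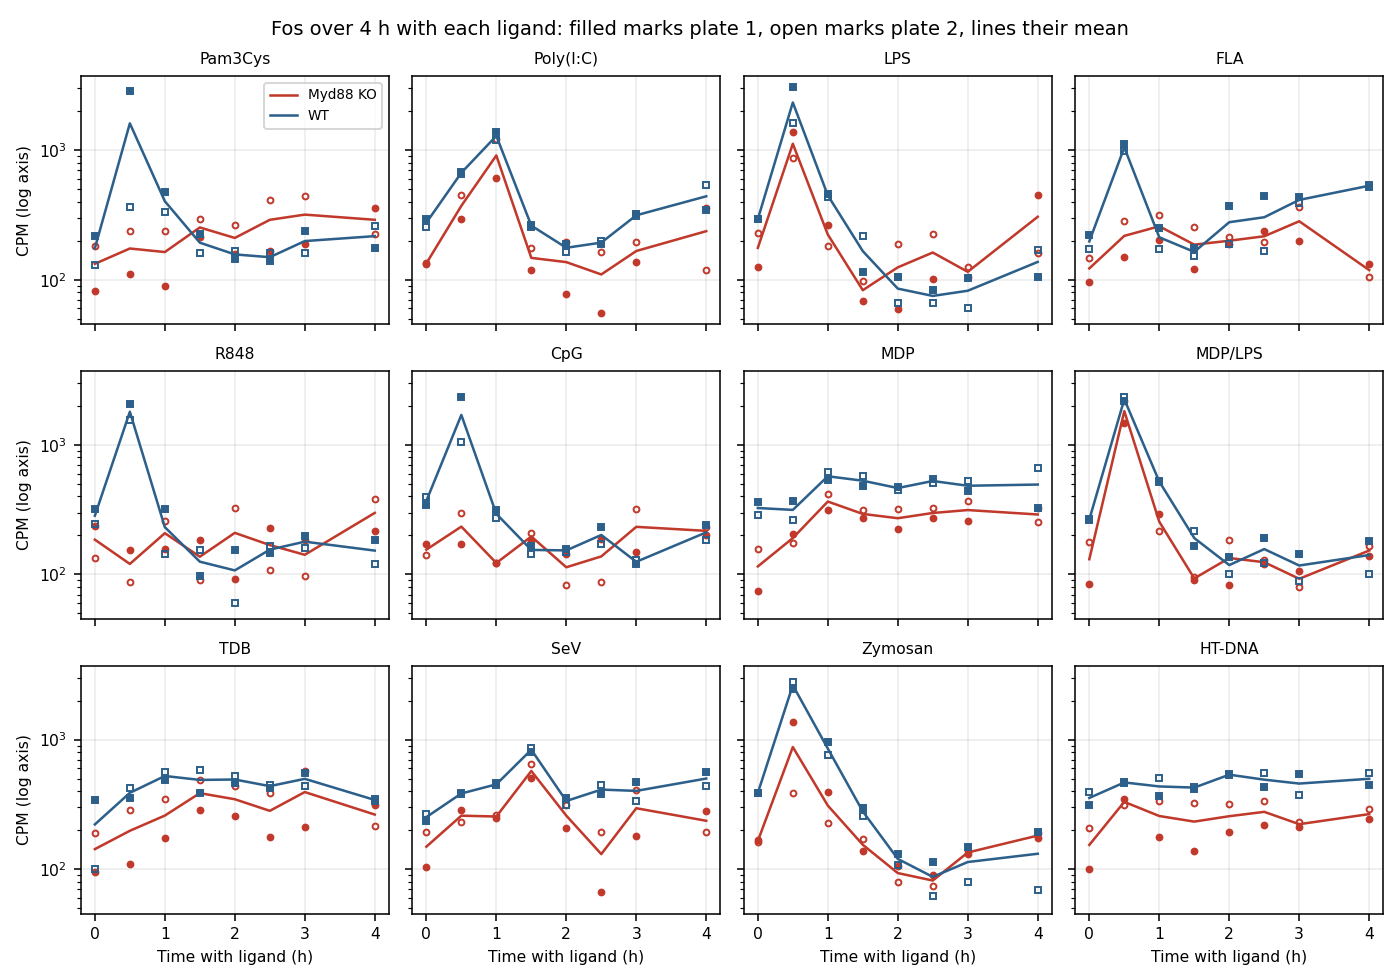
Fos level (CPM, log axis) against time with ligand (h) for each of the 12 ligands, in Myd88 KO (red circles) and WT (blue squares). Filled marks are plate 1, open marks plate 2, lines their mean, and the marks at 0 h are the time 0 wells that carry that ligand's label. WT wells rise at 0.5 h with 7 ligands and KO wells with LPS, MDP/LPS and Zymosan, while Poly(I:C) wells are highest at 1 h and SeV wells at 1.5 h in both genotypes.

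The test of the difference between genotypes was made on the change from time 0. At 0.5 h it called 0 of 72 member and ligand pairs, where 0.00628% of all gene and ligand pairs were called in either direction. An unadjusted p under 0.05 was reached by 14 of the 72, beside 1373 of all 111504 pairs. The smallest p was that of Fos with R848, a KO change minus WT change of −2.88 (SE 0.65, edgeR adjusted p = 0.0645). With plate within genotype as a replicate block the same difference was −2.80 with an edgeR adjusted p of 0.0439, which passes. DESeq2 gave an adjusted p of 0.0201, and edgeR gave 0.0265 without KO replicate 1 and 8.25e-05 without the filter on low counts. It did not pass with DESeq2 size factors (edgeR adjusted p = 0.0568), without Rn45s in the totals (0.0626) or without the wells under 100000 counts (0.0562). Nor did it pass without KO replicate 2, where it was −2.40 with an edgeR adjusted p of 0.9998, or without WT replicate 1 or 2, with edgeR adjusted p of 0.9999 and 0.392. For Fos with Pam3Cys the difference was −2.36 (SE 0.63), and without WT replicate 1 it was −0.26. With CpG it was −1.95 (SE 0.62) and with FLA −1.27 (SE 0.62), both with an edgeR adjusted p of 1. With LPS the Fos difference was −0.11 (SE 0.61), with MDP/LPS 0.66 (SE 0.60) and with Poly(I:C) 0.11 (SE 0.61). A span of 2 SE around each of these reaches more than 1 log2 unit to either side, so they do not show that the genotypes responded alike.

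Jun, the founding member of the Jun family, rose at 0.5 h with LPS and MDP/LPS in KO, and with LPS, FLA, R848, MDP/LPS and Zymosan in WT. With LPS it was at 609 and 309 CPM in KO, and at 829 and 569 CPM in WT. The changes were 1.67 in KO (SE 0.41, edgeR adjusted p = 0.0229) and 2.14 in WT (SE 0.41, edgeR adjusted p = 0.00035). With FLA it was at 171 and 247 CPM in KO, inside the range of KO time 0 wells, and at 748 and 782 CPM in WT, above the highest WT time 0 well of 224 CPM. The FLA change in WT was 2.19 (SE 0.41, edgeR adjusted p = 0.000577). R848 gave 176 and 164.5 CPM in KO and 809.8 and 522 CPM in WT. The KO change minus the WT change of Jun was −1.87 with R848 (SE 0.59) and −1.69 with FLA (SE 0.57), and neither passed (edgeR adjusted p = 1 for both). With Zymosan Jun was at 261 and 227 CPM in KO and at 710.3 and 771 CPM in WT, and the difference was −1.45 (SE 0.57, edgeR adjusted p = 1).

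Junb, a Jun protein that competes with Jun for partners, rose at 0.5 h with LPS and MDP/LPS in KO and with 7 ligands in WT, the same 7 as Fos. As for Fos, the Pam3Cys wells of WT disagreed, at 1087 CPM on plate 1 and 499 CPM on plate 2. The second value lies within the range of the WT time 0 wells. MDP/LPS gave 933 and 1265 CPM in KO, against 1107 and 1255 CPM in WT, so the wells of the genotypes overlapped. With a lower time 0 level in KO, the change was 2.89 in KO (SE 0.37, edgeR adjusted p = 9.06e-10) and 2.05 in WT (SE 0.36, edgeR adjusted p = 4.22e-05). FLA gave 182 and 215 CPM in KO, against 1288 and 1502 CPM in WT, the highest mean Junb level of WT at this time. The WT change with FLA was 2.23 (SE 0.36, edgeR adjusted p = 1.51e-05), and the difference between genotypes was −1.84 (SE 0.50, edgeR adjusted p = 0.711). R848 gave 231 and 222.5 CPM in KO and 1205 and 942 CPM in WT.

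**Figure D2:**
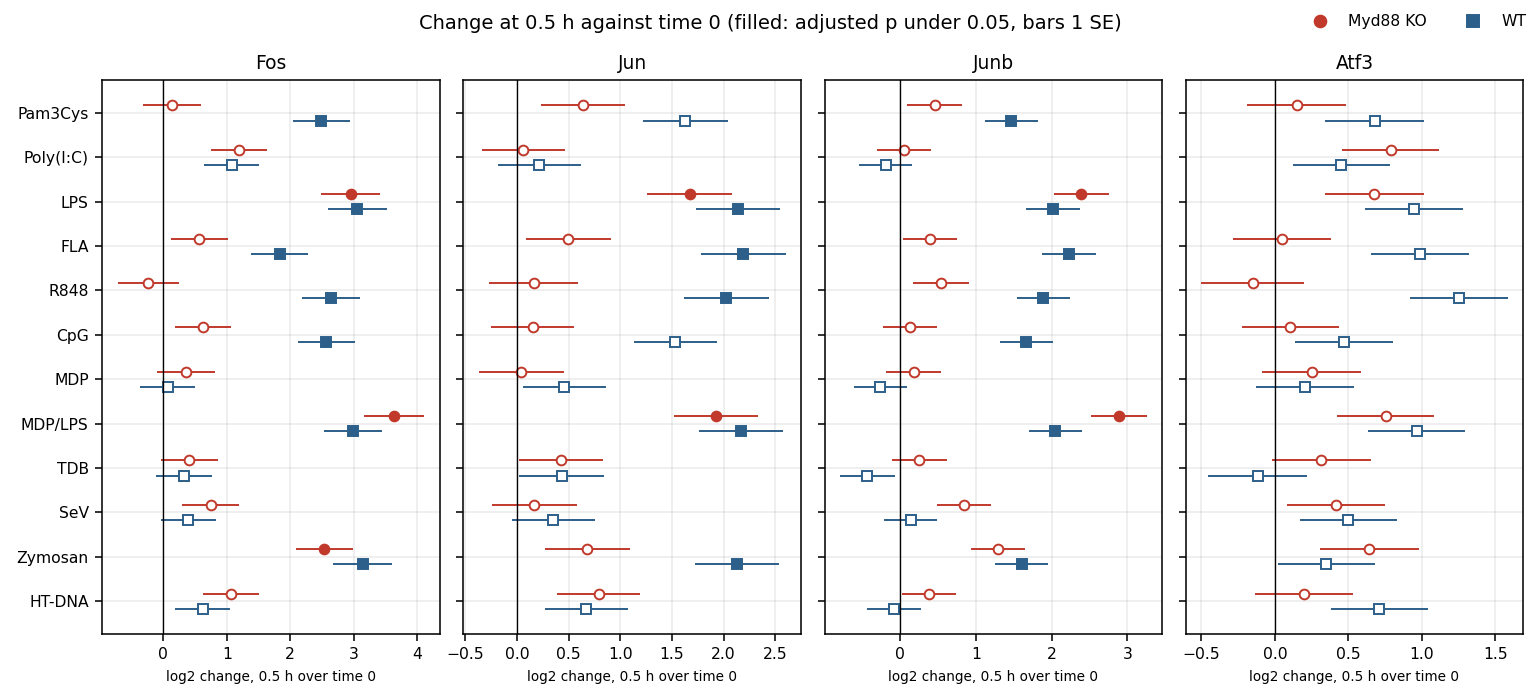
Log2 change from time 0 to 0.5 h (horizontal axis) of Fos, Jun, Junb and Atf3 with each ligand (vertical axis), in Myd88 KO (red circles) and WT (blue squares). Marks are edgeR estimates from 2 plates, bars 1 SE, and filled marks passed an adjusted p of 0.05. KO marks are filled with LPS and MDP/LPS for Fos, Jun and Junb and with Zymosan for Fos, while WT marks are also filled with FLA and R848 for these 3 genes.

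Where Fos rose with LPS, R848, MDP/LPS or Zymosan, the signal was short. In WT the 1 h well with LPS held 0.151 and 0.270 of the CPM of the 0.5 h well on the same plate, and with R848 it held 0.155 and 0.0938. In KO the ratios were 0.193 and 0.210 with LPS and 0.1999 and 0.0995 with MDP/LPS. With Zymosan they were 0.288 and 0.584 in KO and 0.384 and 0.272 in WT. The Pam3Cys ratios of WT were 0.165 and 0.912. With FLA in WT they were 0.227 and 0.175, but at 4 h Fos was at 520 and 543 CPM, above all WT time 0 wells. A late rise of Fos was called with 0 of 12 ligands in WT. In the summed wells of 2.5, 3 and 4 h, Fos fell below time 0 with LPS in WT, at 99.6 and 105 CPM, a change of −1.19 (SE 0.38, edgeR adjusted p = 0.0398). The late LPS wells of KO held 247 and 164 CPM, a change of 0.69 (SE 0.38, edgeR adjusted p = 0.413), and the KO change minus the WT change was 1.89 (SE 0.54, edgeR adjusted p = 0.612). The KO wells at 4 h with LPS disagreed, with 450.1 CPM on plate 1 and 162 CPM on plate 2.

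Other ligands gave a later Fos signal in both genotypes. With Poly(I:C), Fos was at 607 and 1213 CPM in KO at 1 h, and at 1369 and 1208 CPM in WT. These 1 h changes were 2.52 in KO (SE 0.45, edgeR adjusted p = 0.000126) and 2.05 in WT (SE 0.44, edgeR adjusted p = 0.0104). The Poly(I:C) call in KO was lost without KO replicate 2, and that change ran between 2.21 and 2.76 over the alternative runs. At 0.5 h the Poly(I:C) wells stood between the time 0 and 1 h levels, at 294 and 449 CPM in KO and 683 and 656 CPM in WT. With SeV the highest Fos wells came at 1.5 h, 501 and 644 CPM in KO and 806 and 866 CPM in WT. The SeV change passed in KO (1.94, SE 0.45, edgeR adjusted p = 0.0276) and not in WT (1.49, SE 0.44, edgeR adjusted p = 0.966). The KO call was lost when either KO plate was left out, with an edgeR adjusted p of 0.425 without KO replicate 1 and 0.479 without KO replicate 2, and the difference between the genotypes' changes was 0.45 (SE 0.61, edgeR adjusted p = 1). At 1 h 6 of 72 pairs rose in KO and 7 of 72 in WT, where 0.171% and 0.179% of all pairs were called higher. At that time 0 pairs fell in either genotype, beside 0.0242% and 0.00269% of all pairs called lower. At 1.5 h 6 pairs rose in KO and 2 in WT, where 0.241% and 0.209% of all pairs were called higher, while 0 fell in KO and 1 in WT, where 0.0655% and 0.0126% of all pairs were called lower. The differences between genotypes called 0 of 72 pairs at 1 h, beside 0.00269% of all pairs. An unadjusted p under 0.05 was reached at 1 h by 6 of the 72, beside 2302 of all 111504 pairs. At 1.5 h the differences also called 0 of 72, beside 0.00538% of all pairs. An unadjusted p under 0.05 was reached at 1.5 h by 6 of the 72, beside 2321 of all 111504 pairs. DESeq2 called 12 WT pairs at 1 h and 6 at 1.5 h. Without WT replicate 1, and without WT replicate 2, 0 WT pairs were called at 1 h and at 1.5 h, and without KO replicate 1 the 1.5 h count in KO was 3.

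The pair that fell at 1.5 h was Jun with FLA in WT. It was at 80.0 and 165 CPM in KO, and at 43.0 and 38.4 CPM in WT, where both wells lay below every time 0 well. The WT change was −1.97 (SE 0.47, edgeR adjusted p = 0.0431), 1 h after the rise of the same gene with the same ligand. Late Jun levels were also low with LPS. The summed wells of 2.5 to 4 h held 100.4 and 86.3 CPM in KO, which did not pass, and 51.9 and 61.5 CPM in WT, a change of −1.23 (SE 0.33, edgeR adjusted p = 0.00726). Jun also fell in WT with MDP/LPS (−1.07, edgeR adjusted p = 0.0249) and Pam3Cys (−1.08, edgeR adjusted p = 0.0396). In KO Jun fell with Poly(I:C), to 52.2 and 77.8 CPM, a change of −1.06 (SE 0.32, edgeR adjusted p = 0.0208), beside −0.96 in WT (SE 0.32, edgeR adjusted p = 0.0545). The Pam3Cys call was lost when Rn45s, a ribosomal transcript, was left out of the library totals, and also without the wells under 100000 counts.

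In the late sums, 2.5 to 4 h together, Junb was still above its time 0 level with some ligands and not with others. With FLA, its WT mean was 297 CPM at 3 h and 248 CPM at 4 h, 1.01 and 0.843 times the time 0 mean of WT. With LPS it was at 476 and 303 CPM in the late KO sums, and at 735 and 607 CPM in the late WT sums. The changes were 1.58 in KO (SE 0.29, edgeR adjusted p = 1.94e-05) and 1.52 in WT (SE 0.28, edgeR adjusted p = 2.22e-05). At 1 h MDP/LPS gave 1195 and 1411 CPM in KO and 1214 and 1171 CPM in WT, and the KO change of 3.19 (SE 0.37, edgeR adjusted p = 1.75e-11) was the largest Junb change among the 0.5, 1 and 1.5 h wells. Poly(I:C) at 1 h gave 687 and 1152 CPM in KO and 722 and 937 CPM in WT. Zymosan at 1 h gave 1015 and 441 CPM in KO and 1417 and 1217 CPM in WT, and the second KO well is among the wells under 100000 counts. With SeV, Junb was at 424 and 383 CPM in the late KO sums, and at 519 and 509 CPM in the late WT sums. These changes were 1.68 in KO (SE 0.29, edgeR adjusted p = 2.97e-06) and 1.11 in WT (SE 0.28, edgeR adjusted p = 0.00689). Late Junb rose with 5 ligands in KO (LPS, MDP/LPS, TDB, SeV and Zymosan) and with 7 in WT (Pam3Cys, LPS, R848, CpG, MDP/LPS, SeV and Zymosan). With TDB it was at 404 and 322 CPM in the late KO sums, a change of 1.26 (SE 0.28, edgeR adjusted p = 0.00596), and at 422 and 386 CPM in the late WT sums, a change of 0.48 that did not pass. The difference of the TDB changes was 0.78 (SE 0.39, edgeR adjusted p = 1).

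**Figure D3:**
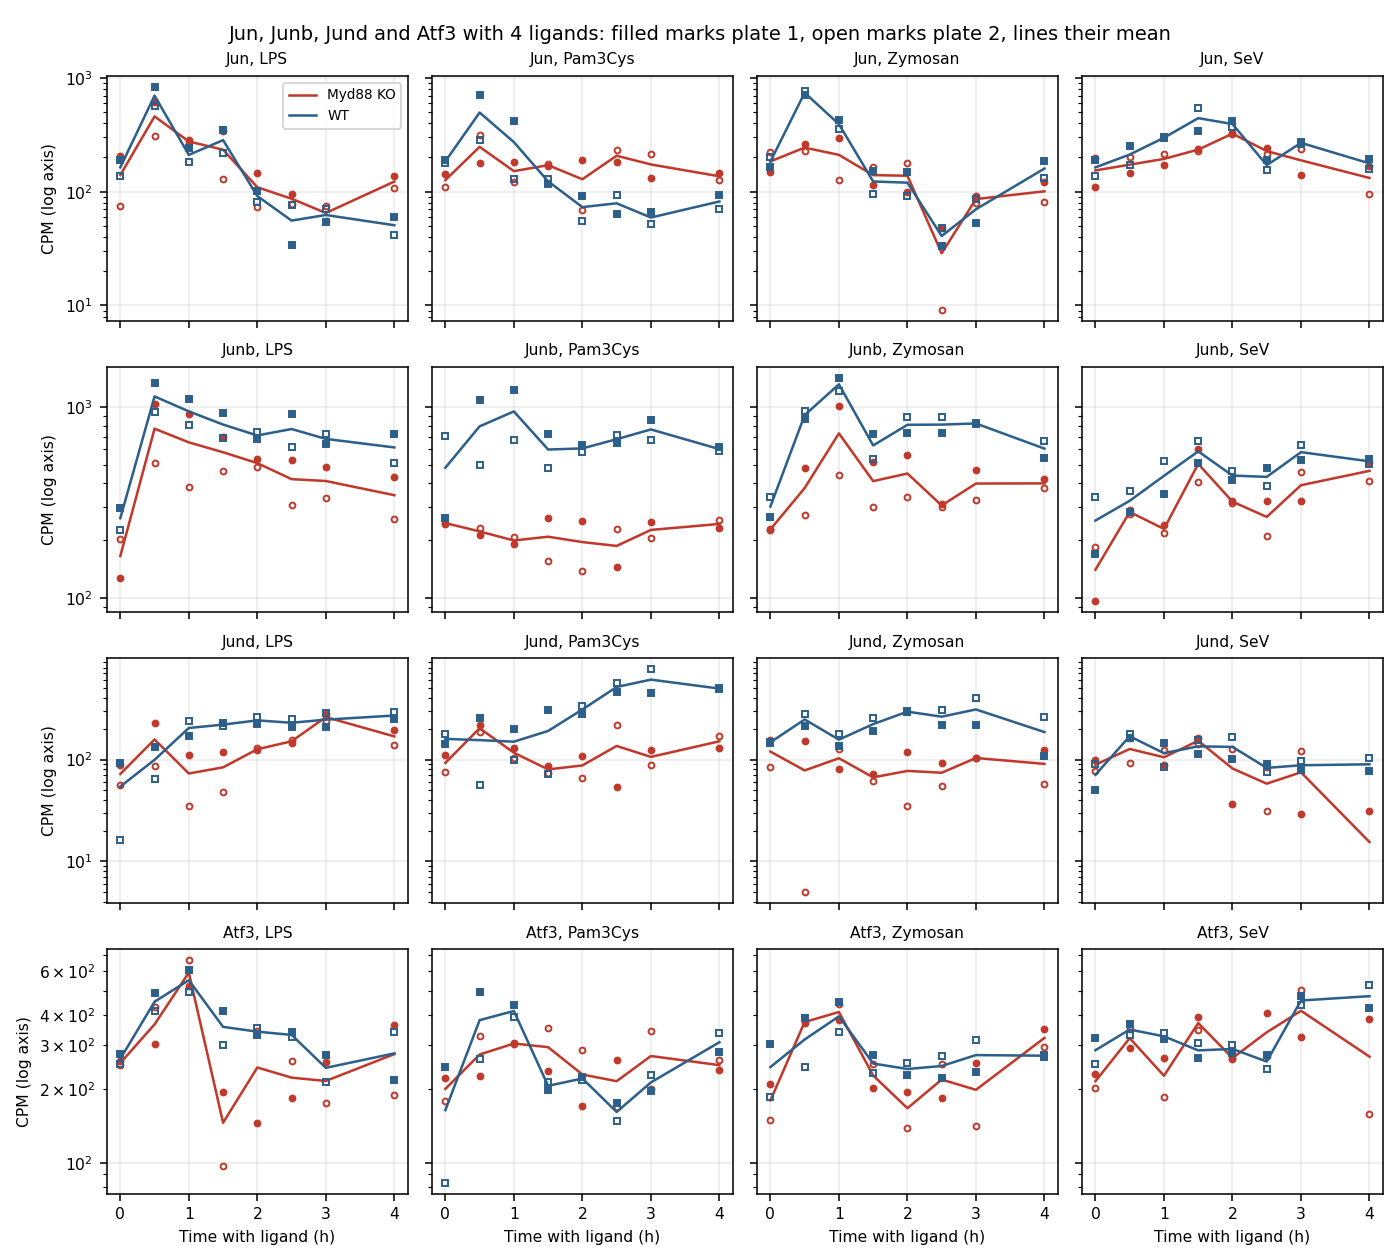
Levels (CPM, log axis) of Jun, Junb, Jund and Atf3 (top to bottom) against time (h) with LPS, Pam3Cys, Zymosan and SeV, in Myd88 KO (red circles) and WT (blue squares). Filled marks are plate 1, open marks plate 2 and lines their mean. The KO Jund well with SeV at 4 h on plate 2 is 0 and is not drawn on the log axis. Jun returns below its start with LPS, Junb is above its start late with LPS in both genotypes, and Jund is highest late with Pam3Cys in WT.

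Over the early sums, 0.5 and 1 h together, 12 of 72 pairs rose in KO and 24 of 72 in WT, where 0.168% and 0.277% of all gene and ligand pairs were called higher. In either genotype 0 fell, beside 0.0197% and 0.00237% of all pairs called lower. Without WT replicate 1 the WT count was 2, and without WT replicate 2 it was 7. In these sums Atf3, a repressor that is itself induced by stress and by TLR ligands, rose with LPS and Poly(I:C) in KO and with LPS, R848 and MDP/LPS in WT. Without the filter on low counts the calls with Poly(I:C) in KO (0.94, edgeR adjusted p = 0.0244) and with MDP/LPS in WT (0.99, edgeR adjusted p = 0.0105) were lost, at an edgeR adjusted p of 0.173 and 0.171. All 5 early Atf3 calls were lost when either WT plate was left out, and both KO calls also without KO replicate 2. Atf3 with LPS was at 406 and 534 CPM in KO, and at 551 and 450.2 CPM in WT. The changes were 1.12 in KO (SE 0.24, edgeR adjusted p = 0.00221) and 1.14 in WT (SE 0.24, edgeR adjusted p = 0.00121). R848 gave Atf3 an early WT level of 500.4 and 579 CPM and a change of 1.20 (SE 0.24, edgeR adjusted p = 0.000563). The KO change minus the WT change of Atf3 with R848 was −1.02 (SE 0.34, edgeR adjusted p = 0.867). In single wells, Atf3 passed only with LPS at 1 h in KO, at 521 and 665 CPM (1.38, SE 0.34, edgeR adjusted p = 0.0176), and that call was lost without the filter on low counts, without KO replicate 2 and when either WT plate was left out. The early difference between genotypes called 0 of 72 pairs, beside 0.0237% of all pairs. An unadjusted p under 0.05 was reached by 17 of the 72, beside 2650 of all 126744 pairs.

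Atf3 also rose late, with SeV in both genotypes. It was at 370.4 and 339.7 CPM in the KO sums of 2.5 to 4 h, and at 412 and 424 CPM in the WT sums. The changes were 0.88 in KO (SE 0.24, edgeR adjusted p = 0.0101) and 1.06 in WT (SE 0.24, edgeR adjusted p = 0.000973). The KO call with SeV was lost without the filter on low counts and without KO replicate 1 (edgeR adjusted p = 0.158). Both SeV calls were also lost when either WT plate was left out. Late Atf3 also rose with TDB in KO (0.89, edgeR adjusted p = 0.0477) and with Poly(I:C) in WT (0.91, edgeR adjusted p = 0.00569). The TDB call was lost with DESeq2 size factors, without the filter on low counts, without the wells under 100000 counts, without KO replicate 1 and when either WT plate was left out. Over all late sums, 7 of 72 pairs rose in KO and 13 in WT, where 1.59% and 2.11% of all gene and ligand pairs were called higher. In the other direction 1 pair fell in KO and 4 in WT, where 0.603% and 0.694% of all pairs were called lower. Without WT replicate 1 the late counts in both directions together were 4 in KO and 1 in WT, and without WT replicate 2 they were 4 in KO and 2 in WT. The late difference between genotypes called 0 of 72 pairs, beside 0.158% of all pairs. An unadjusted p under 0.05 was reached by 14 of the 72, beside 4034 of all 126744 pairs.

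Jund, the Jun protein usually regarded as constitutive, rose in the late sums of WT with Pam3Cys, R848, LPS and Zymosan and passed with no ligand at 1.5 h or before. With Pam3Cys it was at 469 and 601 CPM in the late WT sums, against 109.8 and 103 CPM in the WT time 0 sums. The WT change was 2.43 (SE 0.46, edgeR adjusted p = 0.000177). Single Pam3Cys wells at 3 h were at 123 and 89.3 CPM in KO, and at 449 and 769.5 CPM in WT. With R848 Jund was at 112 and 44.4 CPM in KO at 3 h and at 458 and 489 CPM in WT, and the late WT change was 1.99 (SE 0.46, edgeR adjusted p = 0.00271). The KO and WT wells did not overlap with either ligand at that time. The KO change minus the WT change was −2.04 with R848 (SE 0.66, edgeR adjusted p = 0.225) and −1.85 with Pam3Cys (SE 0.64, edgeR adjusted p = 0.299), and neither passed.

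With LPS late Jund was at 209 and 186 CPM in KO, and at 226 and 276 CPM in WT. The change in KO was 1.43 (SE 0.46, edgeR adjusted p = 0.0579), just over the threshold, and in WT 1.56 (SE 0.45, edgeR adjusted p = 0.0199). The Zymosan change in WT, 1.44 (SE 0.45, edgeR adjusted p = 0.0454), was lost under the replicate block and without the wells under 100000 counts. CpG wells of WT disagreed between plates: at 3 h Jund was at 88.5 and 578 CPM and at 4 h at 93.2 and 576 CPM, plate 1 first. Fosl2, which encodes Fra-2, had 3334 counts over all wells and passed in no comparison of the sums or single wells. Its late changes ran between −0.23 and 0.94 over the 12 ligands in KO and between −0.70 and 0.93 in WT. The time 0 sums held 97 and 78 Fosl2 counts on the KO plates, and 119 and 71 on the WT plates.

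**Figure D4:**
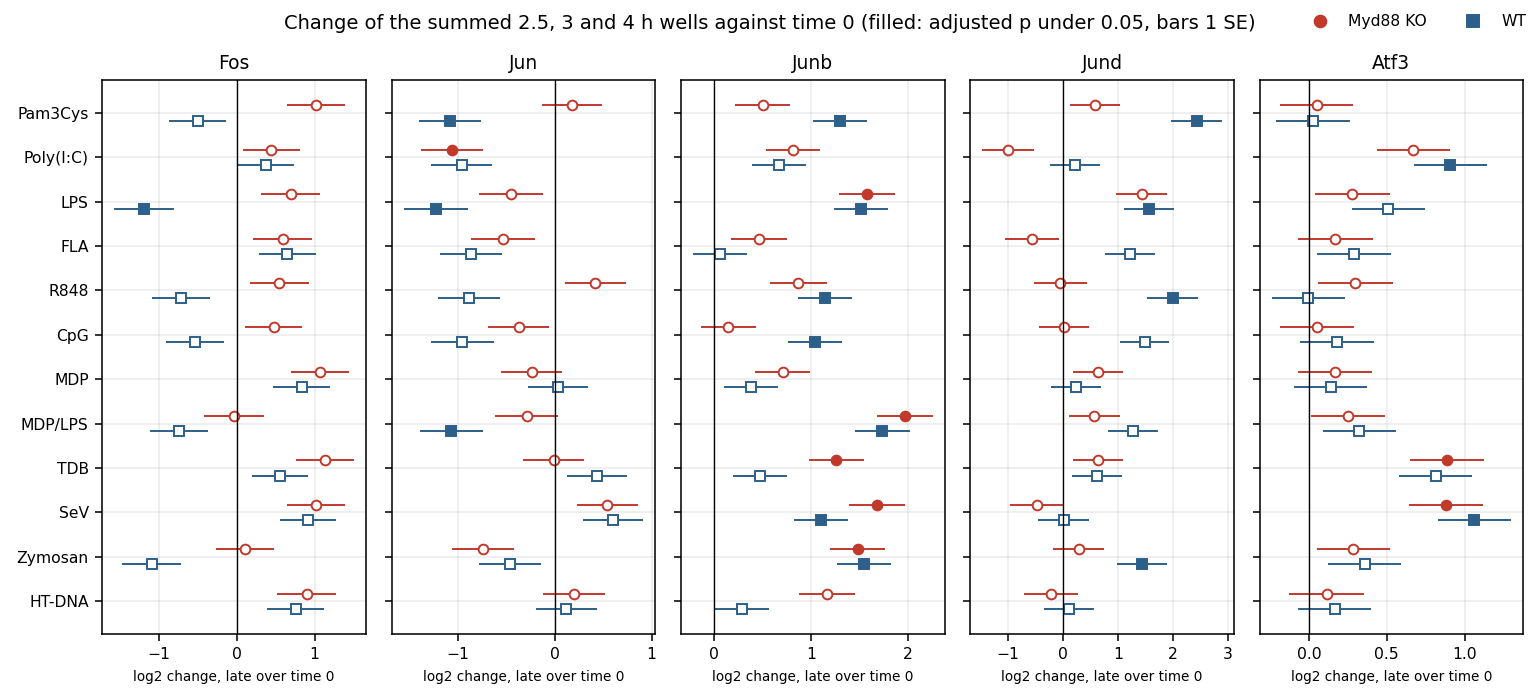
Log2 change of the summed 2.5, 3 and 4 h wells against time 0 (horizontal axis) of Fos, Jun, Junb, Jund and Atf3 with each ligand (vertical axis), in Myd88 KO (red circles) and WT (blue squares). Marks are edgeR estimates from 2 plates, bars 1 SE, and filled marks passed an adjusted p of 0.05. Jund marks are filled in WT alone, with Pam3Cys, LPS, R848 and Zymosan, and Jun marks that are filled lie below 0.

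A highest level exists for every ligand, also where a gene did not rise. The time of the highest mean level after stimulation is given as a description with no test. For Fos it was 0.5 h with 5 of 12 ligands in KO and 7 in WT, and the highest mean was 1.56 to 12.2 times the time 0 mean in KO and 1.79 to 8.97 times in WT. Both plates gave the same time for Fos with 5 ligands in KO and 9 in WT. For Jun it was 0.5 h with 6 ligands in KO and 7 in WT, and both plates gave the same time with 5 in KO and 8 in WT. For Junb it was 0.5 h with 1 ligand in KO and 4 in WT, and 1 h with 3 in KO and 4 in WT. It was 2 h or later with 6 ligands in KO and 1 in WT. Those 6 were Pam3Cys, FLA, R848, CpG, TDB and HT-DNA, of which TDB alone had a late Junb call in KO. Both plates gave the same Junb time with 4 ligands in KO and 6 in WT, and they disagreed for each of those 6. For Atf3 the highest mean came at 1 h with 5 ligands in each genotype, and both plates gave the same time with 5 in KO and 9 in WT. Jund was highest at 2 h or later with 5 ligands in KO and 10 in WT, but both plates gave the same time with 4 ligands in KO and 2 in WT. For Fosl2 the plates gave the same time with 1 ligand in KO and 2 in WT.

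**Figure D5:**
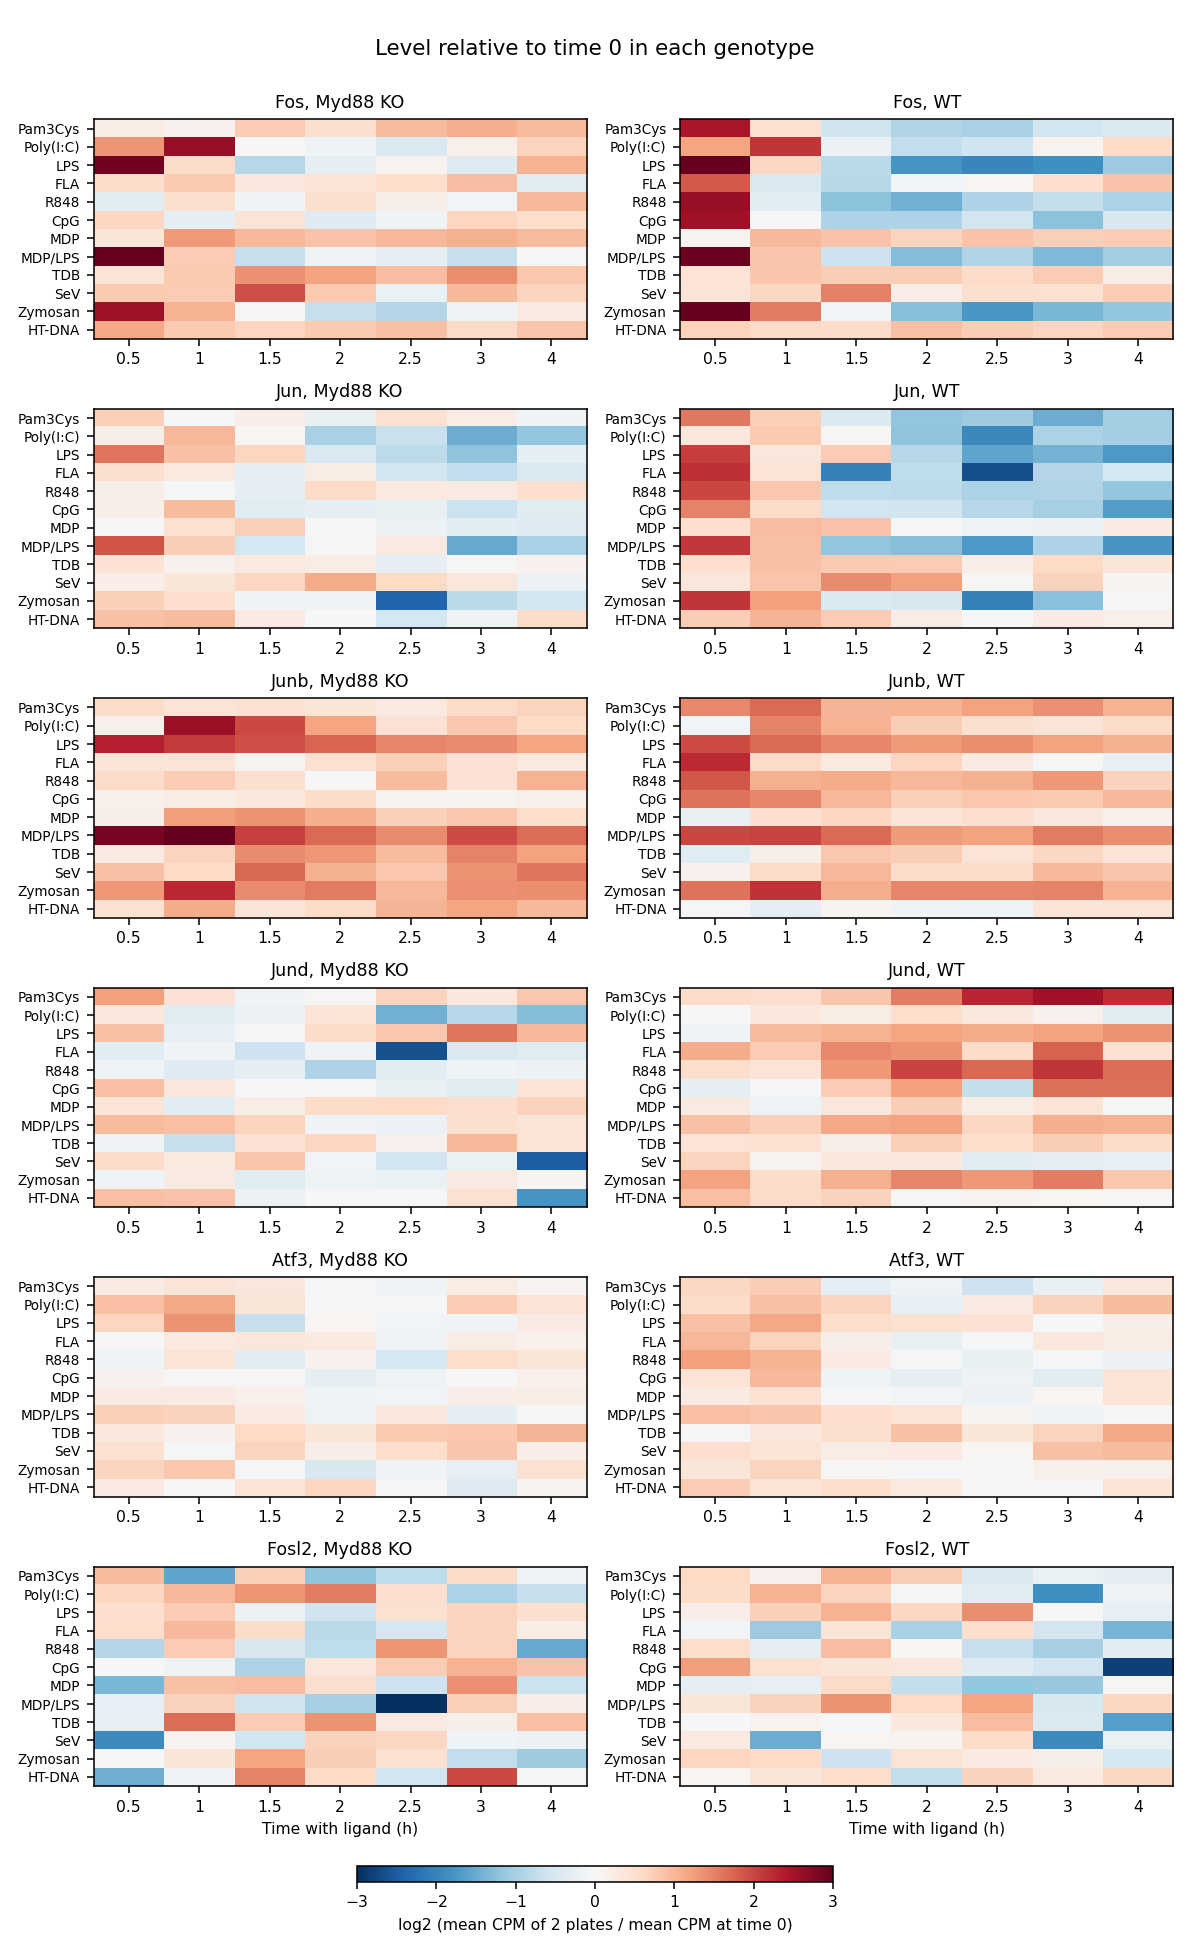
Mean level of 2 plates relative to the time 0 mean of the same genotype, as log2 of the ratio (colour, −3 to 3), for 6 members (top to bottom), with ligands down and times (h) across, in Myd88 KO (left) and WT (right). Values past the ends of the scale take the end colour. The dark red of Fos lies at 0.5 h, with Poly(I:C) at 1 h, Junb is red along the whole row of MDP/LPS, and the highest Jund mean of WT lies at 2 h or later with 10 of the 12 ligands.

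Other genes of the pathway were read from lists chosen with earlier results known. Of 14 tested immediate early genes outside the family, 10 rose with at least 1 ligand in the early sums of KO and 11 in those of WT. In gene and ligand pairs this was 34 of 168 in KO and 72 of 168 in WT, beside the shares of all pairs given above for the early sums. With LPS the median early log2 change of these 14 other immediate early genes was 2.45 in KO and 2.40 in WT, against −0.10 and −0.03 over all genes tested. Dusp2 and Dusp1, phosphatases that switch MAP kinases off, changed by 5.04 and 2.94 with LPS in KO (SE 0.51 and 0.38) and by 3.81 and 2.76 in WT (SE 0.47 and 0.37). Their edgeR adjusted p was at most 1.03e-08. Zfp36, whose protein destabilises cytokine mRNAs, changed by 1.95 in KO (SE 0.28, edgeR adjusted p = 1.41e-07) and 2.11 in WT (SE 0.28, edgeR adjusted p = 1.16e-08).

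Differences between genotypes did pass in this list. In the early sums 9 of 168 pairs changed less in KO than in WT, over 7 genes, and at 0.5 h there were 2. These are 5.36% and 1.19% of the pairs, where 0.0237% and 0.00628% of all pairs were called in either direction. Those 2 were Zfp36 with R848 (−2.61, SE 0.55, edgeR adjusted p = 0.0125) and Dusp1 with CpG (−3.01, SE 0.65, edgeR adjusted p = 0.0285), named after their values were seen. The late sums gave 4 pairs (2.38%, beside 0.158% of all pairs in either direction), all with a lower change in KO: Klf6, which encodes a zinc finger factor, with Pam3Cys, R848 and CpG, and Dusp2 with R848.

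Among genes of the MAP kinase cascade, 0 of 348 pairs over 29 tested genes changed in the early sums of either genotype. Of all pairs, 0.168% in KO and 0.277% in WT were called higher early, and 0.0197% and 0.00237% lower, so this count is near those shares. Late, 10 rose and 2 fell in KO, which is 2.87% and 0.575% of the pairs, where 1.59% and 0.603% of all pairs were called higher and lower. In WT 16 rose and 3 fell, or 4.60% and 0.862%, where 2.11% and 0.694% of all pairs were called. Mapkapk2, a kinase downstream of p38, rose late with LPS by 1.48 in KO (SE 0.26) and 1.69 in WT (SE 0.26), with an edgeR adjusted p of at most 9.08e-06. Of 9 tested genes from a list of SRF, its partners, Ets2 and the MEF2 factors, 0 of 108 pairs changed early in either genotype. That count too is near the early shares of all pairs just given. Late, 1 rose and 2 fell in KO, or 0.926% and 1.85%, beside the 1.59% and 0.603% of all pairs. In WT 2 rose and 8 fell, or 1.85% and 7.41%, beside the 2.11% and 0.694% of all pairs. The genes that fell include Mef2c with LPS in WT (−1.29, SE 0.34, edgeR adjusted p = 0.00559).

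Of the other leucine zipper partners, 2 of 300 pairs rose early in KO and 4 in WT, where the 4 were all Cebpb. These are 0.667% and 1.33% of the pairs, where 0.168% and 0.277% of all pairs were called higher early. Late, 14 rose and 11 fell in KO, or 4.67% and 3.67%, beside 1.59% and 0.603% of all pairs. In WT 31 rose and 12 fell, or 10.3% and 4%, beside 2.11% and 0.694% of all pairs. Jdp2, a Jun-binding repressor, rose late with LPS by 3.42 in KO (SE 0.53, edgeR adjusted p = 7.61e-07) and 2.04 in WT (SE 0.49, edgeR adjusted p = 0.00223). Of the textbook AP-1 target genes, 0 of 132 pairs rose early in KO and 1 in WT, which is 0 and 0.758% of the pairs, beside 0.168% and 0.277% of all pairs. Late, 11 rose and 1 fell in KO, or 8.33% and 0.758%, beside 1.59% and 0.603% of all pairs. In WT 22 rose and 2 fell late, or 16.7% and 1.52%, beside 2.11% and 0.694% of all pairs. The collagenase Mmp13 changed with LPS by 2.34 in KO (SE 0.35, edgeR adjusted p = 1.33e-07) and 3.22 in WT (SE 0.35, edgeR adjusted p = 1.22e-12). The adhesion receptor Cd44 changed by 1.02 in KO (SE 0.22, edgeR adjusted p = 0.000526) and 1.74 in WT (SE 0.22, edgeR adjusted p = 3.45e-10).

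Genes with the most similar pattern to each member were named by Pearson's r of log2(CPM + 5) over 170 groups of genotype, ligand and time among 10562 genes. The groups share plates, depth and time 0 wells, so r is a description with no test. Fos was nearest to Zfp36l1 (0.682), Bmp2 (0.639) and Egr1 (0.636), and Jun to genes that include Rasgrp3 (0.712) and Nrp1 (0.680). Junb was nearest to Cxcl2 (0.885), Nfkbia (0.884) and Dusp2 (0.866). Jund was nearest to Fyb (0.778), Foxp1 (0.771) and Gtpbp4 (0.759), Atf3 to Bmp2 (0.570), Nr4a1 (0.560) and Gdf15 (0.555), and Fosl2 reached at most 0.365, with Ier2. Between members, r was 0.714 for Fos and Jun, 0.547 for Fos and Atf3, 0.497 for Junb and Jund, and −0.140 for Jun and Jund.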

How the data were processed

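RNA from 192 wells of each genotype was measured by 3′ digital gene expression with a modified SCRB-Seq protocol, per the labels. The authors deposited 1 table of raw counts per gene and well. Reads were aligned with BWA to mm10, per the submitters' processing notes; the sources used here do not give versions, annotation, strand use or collapsing of molecular identifiers. Counts of 3′ tags without that knowledge may include PCR copies.

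CPM are counts over the well's total. Counts were tested with edgeR 4.0.16 (R 4.3.3), quasi-likelihood with TMM scaling, filterByExpr with a minimum count of 10 and Benjamini-Hochberg adjustment within each comparison at a threshold of 0.05. One fit used plate sums (time 0, 12 wells; 0.5 and 1 h; 1.5 and 2 h; 2.5, 3 and 4 h; 10562 genes), the other time 0 sums with single wells of 0.5, 1 and 1.5 h (9292 genes). All groups entered, each with 2 plates, and shared the estimate of the spread. Alternatives were DESeq2 1.42.0, its size factors, no filter, a plate block, Rn45s left out, shallow wells left out and each plate left out. The fits were tested on simulated data. The members and lists were chosen with earlier results of these data known. Named list genes followed a rule of smallest p, up to 4 per list and comparison. A result that the naming rule for similar patterns gave is not reported here.

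Plate numbers are shared by wells of 1 plate within a genotype, not across genotypes. Over 37 groups and 5205 genes, wells of the same plate had a median correlation of deviations of 0.0537 in KO and 0.0364 in WT. Rn45s took 2.26 to 29.7% of counts.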

Additional observations from a re-analysis of the deposited data

How the results depend on the processing

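Of 109 called changes of the members, 0 turned direction under any alternative run. With DESeq2 109 stayed past the threshold, with its size factors 108, without the filter on low counts 104, with plate within genotype as a replicate block 108, without Rn45s 108 and without the shallow wells 106. Leaving out a KO plate left 97 (without KO replicate 1) or 101 (without KO replicate 2) past the threshold, and leaving out a WT plate left 34 (plate 1 out) or 43 (plate 2 out), where the lone plate was assumed to vary like the other groups. DESeq2 called 12 WT pairs at 1 h (7 with edgeR), 6 at 1.5 h (3 with edgeR) and 1 difference between genotypes at 0.5 h (0 with edgeR). The replicate block called 1 difference at 0.5 h, Fos with R848. Without the filter, 2 differences were called at 0.5 h, 2 in the early sums and 4 in the late sums. The cause was not tested. DESeq2's size factors moved the median change of all genes by at most 0.118 (log2) in the fit of sums, over 0.1 in 3 of 73 comparisons, and by at most 0.176 in the fit of wells, over 0.1 in 20 of 108.

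Over the plates left out, pairs called ran from 5 to 7 in KO and 2 to 22 in WT at 0.5 h, from 4 to 5 and 0 to 13 at 1 h, and from 3 to 5 and 0 to 9 at 1.5 h. They ran from 8 to 11 in KO and 2 to 28 in WT in the early sums, and from 4 to 10 and 1 to 25 in the late sums. Differences between genotypes ran from 0 to 2 at 0.5 h, 0 to 1 in the early sums and 0 to 1 in the late sums, and members called at time 0 from 0 to 1. With TMM-scaled library sizes the median time of the highest level in KO was 1.25 h for Fos, 1.75 h for Fosl2, 2.25 h for Junb, 1.75 h for Jund and 1.75 h for Atf3, against 1, 2, 1.75, 1.25 and 1.25 h. Fosb and Fosl1 had too few counts for a test at this depth.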
